A study of Mus musculus with 6 samples.

Results

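The genes described here mark the growing tail end of the embryo: the tailbud and presomitic mesoderm, and the segmentation clock that runs in it. They are *T*, *Tbx6*, *Msgn1*, *Hes7*, *Lfng*, *Mesp2*, *Ripply2*, *Dll1*, *Dll3* and *Wnt3a*, chosen by name from what is known of axis segmentation, and they are 10 of the 55401 genes in the count table. All 10 were found, 6 passed the filter on low counts that left 16784 genes for testing, and 4 (*Msgn1*, *Hes7*, *Mesp2* and *Ripply2*) did not.

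Transcripts of entire E10.5 mouse embryos were counted by RNA-seq in 2 genotypes, with 3 libraries each. WT embryos had the unmodified *Igf2* locus and were littermates of the mutants. 5C embryos carried extra tandem copies of the microRNA gene *Mir483* inserted at the endogenous *Igf2* locus, made by homologous recombination in embryonic stem cells and passed on through chimeric males. The methods state that 2 male embryos on a C57BL/6J background were pooled for every library, so differences between embryos of a pool cannot be seen, and no somite number was used here to set the age of an embryo more finely than the day.

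Vertebrate segments, the somites, form one after another from the presomitic mesoderm, a tissue fed by progenitors in the tailbud that need Wnt and FGF signals and the T-box factor encoded by *T*. Within the presomitic mesoderm, Notch signalling drives cycles of expression of *Hes7* and *Lfng*, and at the front of the tissue *Mesp2* and *Ripply2* set each new boundary. At this stage the tissue is a small part of the embryo, while *Dll1*, *Dll3*, *Lfng* and *Wnt3a* are also used in the developing nervous system. In whole-embryo RNA, fewer cells of a type and less RNA per cell cannot be told apart.

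Some libraries stood apart before any comparison. Totals ran from 6357343 counts in WT replicate 3 to 19151368 in WT replicate 1. The summed level of 12 yolk sac endoderm genes was 6813 CPM (counts scaled to library size) in WT replicate 1 and at most 1361 CPM in the other 5 libraries. The Y-linked *Ddx3y*, which male pools should express, measured 49.2, 0.944 and 49.5 CPM in WT replicates 1, 2 and 3 and 55.9, 0 and 41.6 CPM in 5C replicates 1, 2 and 3, so the libraries labelled replicate 2 in both genotypes went against the stated sex. Neural, blood and heart genes were present in every library of both genotypes. CPM values here were scaled by the trimmed mean of M-values (TMM).

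The sequences through which the inserted microRNA could meet these transcripts are shown first. RefSeq lists *mmu-miR-483-3p* at chr7:142654932-142654952 and *mmu-miR-483-5p* at chr7:142654968-142654989, both on the minus strand of GRCm38.p6, and the seed (bases 2 to 8) is in capitals.
mmu-miR-483-3p: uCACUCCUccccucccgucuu
mmu-miR-483-5p: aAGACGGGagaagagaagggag

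The 3′ UTRs of the 10 genes, read from GENCODE M21 transcripts, held 1 match to the 7 seed bases. It lay in *Wnt3a*, on the minus strand at chr11:59248268-59248296, where the match begins at base 1345 of a 1597-base 3′ UTR and is in capitals.
Wnt3a 3′ UTR: tgtggccatacAGGAGTGtgcctggagag
The same 7 bases (AGGAGTG) occurred in the 3′ UTRs of 1544 of 13746 tested genes, or 11.2%, and the match to *miR-483-5p* (CCCGTCT) in 431, or 3.14%. A match is a description of the letters and not a measured site.

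Promoter windows are shown because the pathways that run the clock act through known short motifs. In RefSeq's GRCm38.p6 sequence from 250 bases before to 50 bases after each start, both strands were searched for the RBPJ motif GTGGGAA, through which Notch signals act, the TCF/LEF motif CTTTGA of Wnt signalling, the T-box motif TCACAC and the E-box CACGTG. Capitals mark the motif or its reverse complement, and each window is written in the direction of the gene.
Lfng RBPJ: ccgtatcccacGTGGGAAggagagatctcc
Hes7 RBPJ: cctcccctcacTTCCCACatttggggctag
Msgn1 RBPJ: aggggccccctTTCCCACtttgtccccgat
Msgn1 TCF/LEF: ccttggttcttcCTTTGAactccctccacc
T TCF/LEF: ctgctcggtactTCAAAGggtgtcccgccc
Dll3 T-box: tggcgcatgcaaTCACACtcaggatgaacc
Ripply2 T-box: tgttgcacgcgtTCACACccgcgcgcggcc

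These windows lie at chr5:140607221-140607250 (+) for *Lfng*, chr11:69120262-69120291 (+) for *Hes7* and chr12:11209044-11209073 (-) and chr12:11209074-11209103 (-) for *Msgn1*. The others lie at chr17:8434177-8434206 (+) for *T*, chr7:28301914-28301943 (-) for *Dll3* and chr9:87015398-87015427 (+) for *Ripply2*. The RBPJ motif was thus found in 3 of the 10 genes, against 6.38% of 32851 promoters of this length. TCF/LEF letters were found in 2 genes, including a further match in *Msgn1*, against 16% of promoters, and T-box letters in 2 against 14.5%. The E-box was found in 1 gene, *Lfng*, where it overlaps the RBPJ motif, against 7.15% of promoters. The promoter shares leave out 1 chromosome, which holds none of the 10 genes. Genes were counted once over 11 promoter entries, while the shares count entries, so the 2 are not alike. No motif count was tested.

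The 10 genes spanned a wide range of levels, which are compared per kilobase of exon. *Dll1* (14.4 ± 1.10 CPM per kb, mean ± SD over 6 libraries) and *Lfng* (13.8 ± 1.01) were highest, and their libraries overlapped. *Dll3* followed at 7.25 ± 0.588 CPM per kb and overlapped neither neighbour. *T* (1.90 ± 0.969) and *Wnt3a* (1.71 ± 0.264) overlapped each other, and *Wnt3a* did not overlap *Tbx6* (0.630 ± 0.384). Below them *Msgn1* (0.384 ± 0.293), *Ripply2* (0.353 ± 0.231), *Hes7* (0.240 ± 0.165) and *Mesp2* (0.0418 ± 0.0408 CPM per kb) formed a run in which each gene's libraries overlapped those of the next. Of the 60 values of the 10 genes, 13 rested on 3 counts or fewer, all of them in these 4 genes.

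Comparison of 5C with WT asked whether axis segmentation transcripts differed in embryos overexpressing *Mir483*. None of the 6 genes tested was called at an adjusted p under 0.05 by edgeR's quasi-likelihood test, beside 0 of all 16784 genes (0%), where the smallest adjusted p was 0.169. At an unadjusted p under 0.05 the count was 0 of 6, beside 1011 of all genes (6.02%), and DESeq2 called 19 genes but none of these. In all 10 genes the WT and 5C libraries overlapped, whereas 11.4% of all tested genes did not. The median log2 fold change of the 6 tested genes was 0.016, beside -0.0024 over all genes tested.

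**Figure D1:**
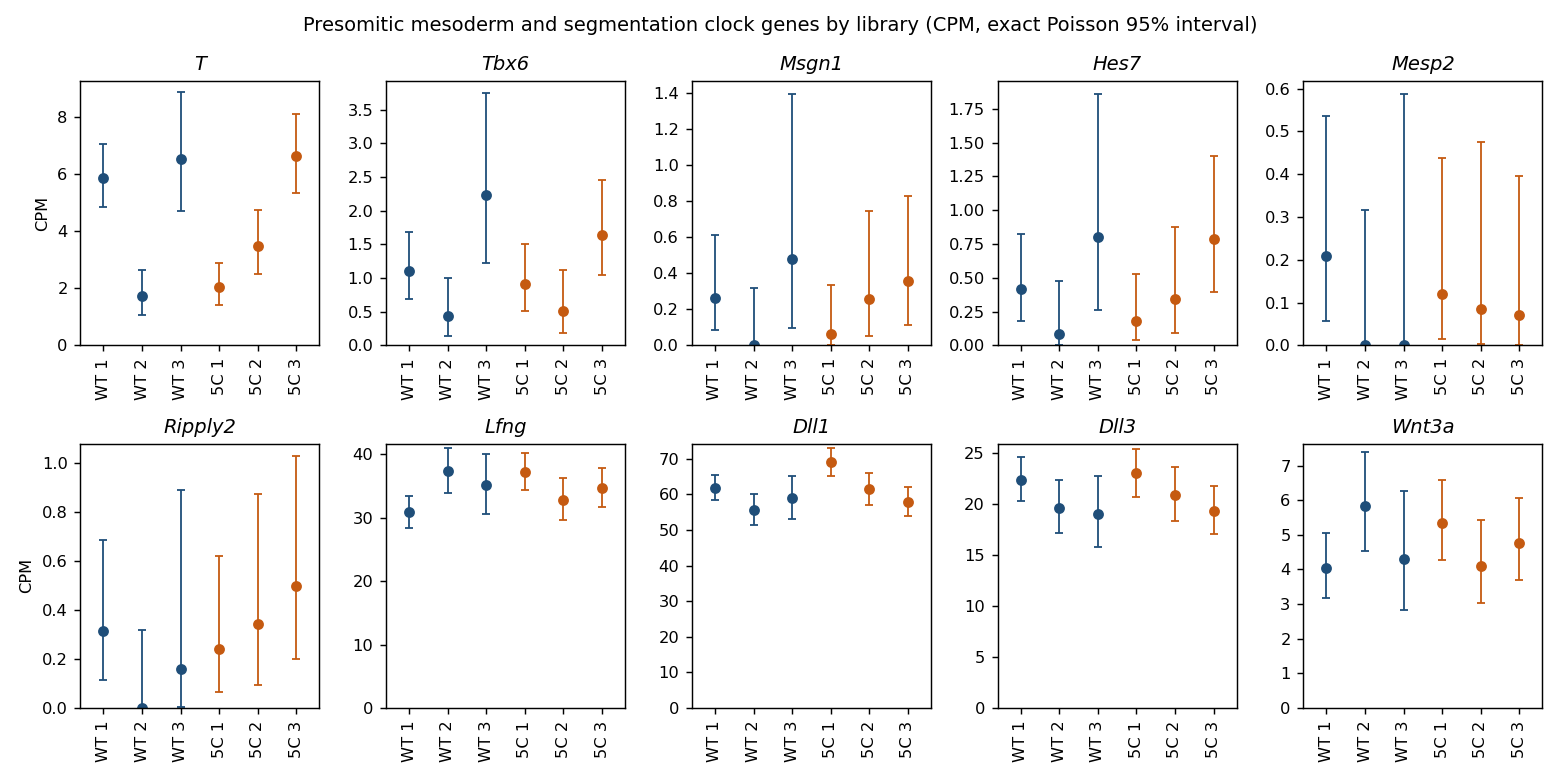
Level of each of the 10 genes in each of the 6 libraries, in TMM-scaled CPM, with exact Poisson 95% intervals that cover counting error only (WT blue, 5C orange). The points of *Dll1*, *Lfng* and *Dll3* lie close together, those of *T* and *Tbx6* are spread out, and in no gene do all points of one genotype lie beyond those of the other.

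*T* (ENSMUSG00000062327, chr17:8434423-8442496, + strand), encoding Brachyury, is expressed in tailbud progenitors and the notochord. It measured 5.88, 1.72 and 6.54 CPM in WT replicates 1, 2 and 3 and 2.06, 3.50 and 6.62 CPM in 5C replicates 1, 2 and 3. Each genotype held both high and low libraries, with WT replicate 2 lowest of all at 20 counts. Its exact Poisson interval of 1.05 to 2.65 CPM, which covers counting error only, lay below that of WT replicate 1 (4.84 to 7.07 CPM) and of WT replicate 3 (4.69 to 8.87 CPM). Likewise, 5C replicate 1 (1.43 to 2.88 CPM) lay below 5C replicate 3 (5.34 to 8.11 CPM). The difference between genotypes was -0.20 ± 0.50 (log2 fold change ± SE, adjusted p = 0.946, edgeR), and its 95% interval ran from a fold of 0.401 to 1.90. The estimate ranged from -0.76 without 5C replicate 3 to 0.13 without 5C replicate 1, and was -0.61 without WT replicate 2 (adjusted p = 0.628, edgeR).

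Notochord genes were given beside *T* because that tissue also expresses it. None of the 6 of 7 tested was called or had an unadjusted p under 0.05, with a median log2 fold change of -0.15, and their summed level was 37.0 to 41.6 CPM over all 6 libraries. *Shh*, the notochord and floor plate signal, ranged from 12.9 CPM in WT replicate 3 to 18.1 CPM in WT replicate 2, the library in which *T* was lowest. *Shh* was the most abundant of the 7, so their sum is not one of notochord alone. The early notochord gene *Noto* had 0, 1 and 6 counts in WT and 1, 1 and 6 in 5C, in replicate order. That is 0.957 CPM in WT replicate 3, 0.427 in 5C replicate 3 and at most 0.0859 CPM in the other 4 libraries. These counts are too few to compare libraries.

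*Tbx6* (ENSMUSG00000030699, chr7:126781483-126785560, + strand) commits cells to the presomitic mesoderm rather than to a neural fate. It measured 1.10, 0.429 and 2.23 CPM in WT replicates 1, 2 and 3 and 0.909, 0.512 and 1.64 CPM in 5C replicates 1, 2 and 3. WT replicate 2 was again the lowest, at 5 counts, and replicate 3 was the highest in both genotypes. The log2 fold change was -0.11 ± 0.55 (SE, adjusted p = 0.982, edgeR), and the 95% interval ran from a fold of 0.395 to 2.16. Without WT replicate 2 the log2 fold change was -0.52 (adjusted p = 0.742, edgeR), and it ranged from -0.60 without 5C replicate 3 to 0.33 without WT replicate 3. Per kilobase, *Tbx6* stood at 0.188 to 0.566 of the level of *T* over the 6 libraries.

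*Msgn1* (ENSMUSG00000047002, chr12:11208360-11208972, - strand), a basic helix-loop-helix factor of the posterior presomitic mesoderm, had 5, 0 and 3 counts in WT and 1, 3 and 5 counts in 5C. *Hes7* (ENSMUSG00000023781, chr11:69120404-69124055, + strand), the oscillating repressor at the core of the clock, had 8, 1 and 5 counts in WT and 3, 4 and 11 in 5C. *Mesp2* (ENSMUSG00000030543, chr7:79810727-79813439, + strand), which marks the next segment border, had 4, 0 and 0 counts in WT and 2, 1 and 1 in 5C. WT replicate 2 had the lowest level of all 3 genes, sharing the 0 of *Mesp2* with WT replicate 3. *Ripply2* (ENSMUSG00000047897, chr9:87015537-87019917, + strand), a repressor that limits *Mesp2* and T-box activity, had 6, 0 and 1 counts in WT and 4, 4 and 7 in 5C.

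These 4 genes were too low for the model, so only counts pooled over the 3 libraries of each genotype are given, with an exact interval that covers counting error and not the spread between libraries. The 5C to WT ratio was 0.984 (0.337 to 2.93) for *Msgn1* from 9 and 8 counts, and 1.13 (0.529 to 2.44) for *Hes7* from 18 and 14 counts. It was 0.875 (0.163 to 4.70) for *Mesp2* from 4 counts each, and 1.88 (0.720 to 5.44) for *Ripply2* from 15 and 7 counts. No difference was detectable at this depth in any of the 4. As a one-sided limit, a count of 0 allows up to 3 counts, which is 0.258 CPM in WT replicate 2 and 0.479 CPM in WT replicate 3. Of the exon bases of *Hes7*, 12.9% lie under a gene on the opposite strand, and the strand setting of the counting was not given in the sources used here.

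The genes most restricted to presomitic mesoderm were also summed, since each alone had few counts. The sum of *Tbx6*, *Msgn1*, *Hes7*, *Mesp2* and *Ripply2* was 2.31, 0.515 and 3.67 CPM in WT replicates 1, 2 and 3, from 44, 6 and 23 counts. In 5C replicates 1, 2 and 3 it was 1.52, 1.54 and 3.35 CPM, from 25, 18 and 47 counts. The 5C libraries lay inside the WT range, and the highest sum was 7.12 times the lowest. WT replicate 2, with an exact Poisson interval of 0.189 to 1.12 CPM, lay below WT replicate 1 (1.68 to 3.10 CPM) and WT replicate 3 (2.33 to 5.51 CPM). WT replicate 2 was alone the lowest library in 4 of these 5 genes and in *T*, and tied for it in *Mesp2*. It was alone the lowest in 15.9% of all tested genes. That share is not a like one for *Msgn1*, *Hes7*, *Mesp2* and *Ripply2*, which were not tested and had 0 or 1 count in this library.

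**Figure D2:**
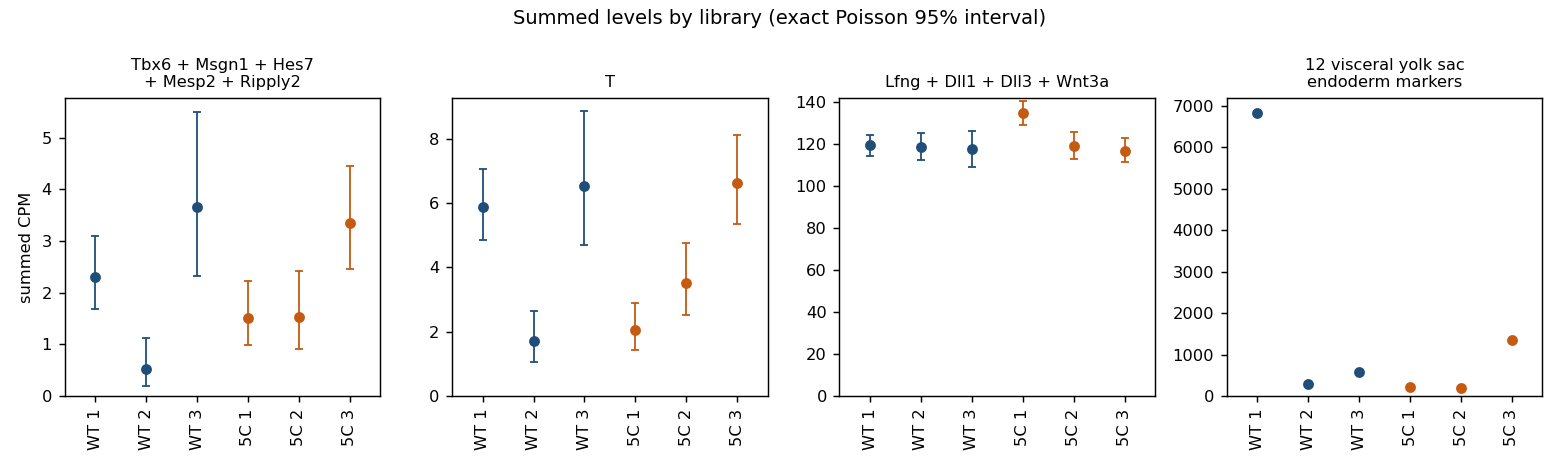
Summed CPM by library, with exact Poisson 95% intervals, for the 5 presomitic mesoderm genes, for *T*, for *Lfng*, *Dll1*, *Dll3* and *Wnt3a*, and for 12 yolk sac endoderm genes, where intervals are smaller than the points (WT blue, 5C orange). The presomitic mesoderm sum falls to 0.515 CPM in WT replicate 2 and reaches 3.67 CPM in WT replicate 3, while the sum of the other 4 genes stays between 116.7 and 134.5 CPM, and the yolk sac sum is highest in WT replicate 1.

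The spread between libraries of one genotype was correspondingly wide for 2 of the 6 tested genes. The SD of log2 CPM within genotype was 0.921 for *T* and 0.881 for *Tbx6*, above that of 98.8% and 98.7% of tested genes. It was 0.234 for *Wnt3a*, 0.125 for *Dll3*, 0.118 for *Lfng* and 0.105 for *Dll1*, beside a median of 0.151 over all genes tested. Counting error adds to this spread in *Tbx6*, with 5 to 23 counts a library.

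Among the Notch components, *Dll1* (ENSMUSG00000014773, chr17:15367354-15376872, - strand) encodes the activating ligand that also restrains neuronal differentiation in the spinal cord. It measured 61.9, 55.7 and 58.9 CPM in WT replicates 1, 2 and 3 and 69.0, 61.4 and 58.0 CPM in 5C replicates 1, 2 and 3. The highest library was 5C replicate 1 and the lowest WT replicate 2, with the rest interleaved. The log2 fold change was 0.09 ± 0.086 (SE, adjusted p = 0.828, edgeR), with a 95% interval of 0.934 to 1.22 in fold. Offsets for transcript GC content moved it to 0.17 (unadjusted p = 0.0463 and adjusted p = 0.92, edgeR). Of its exon bases, 20.6% lie under a gene on the opposite strand.

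*Dll3* (ENSMUSG00000003436, chr7:28293553-28302238, - strand), a divergent ligand that dampens Notch activation within the cell and is needed for regular somites, measured 22.4, 19.6 and 18.98 CPM in WT replicates 1, 2 and 3. In 5C replicates 1, 2 and 3 it measured 23.0, 20.8 and 19.3 CPM. In both genotypes replicate 1 was the highest and replicate 3 the lowest, and the ranges overlapped almost wholly. The log2 fold change was 0.04 ± 0.11 (SE, adjusted p = 0.947, edgeR), with a 95% interval of 0.866 to 1.23 in fold. The per-kilobase ratio of *Dll3* to *Dll1* stayed between 0.477 and 0.534 in all 6 libraries.

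*Lfng* (ENSMUSG00000029570, chr5:140607320-140615545, + strand), a glycosyltransferase that modifies Notch receptors and cycles with the clock, measured 30.9, 37.4 and 35.1 CPM in WT replicates 1, 2 and 3. In 5C replicates 1, 2 and 3 it measured 37.2, 32.8 and 34.7 CPM, all inside the WT range. WT replicate 2, the lowest library for *Hes7*, was the highest for *Lfng*. That *Hes7* value rests on 1 count, and its interval (0.00217 to 0.478 CPM) overlaps that of every other library. The log2 fold change was 0.02 ± 0.098 (SE, adjusted p = 0.973, edgeR), with a 95% interval of 0.874 to 1.18 in fold. The lowest library, WT replicate 1, was the one rich in yolk sac endoderm transcripts, whose part in this value was not tested.

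*Wnt3a* (ENSMUSG00000009900, chr11:59248033-59290752, - strand), the tailbud Wnt ligand that maintains progenitors and is also made by the roof plate of the neural tube, measured 4.04, 5.84 and 4.31 CPM in WT replicates 1, 2 and 3. In 5C replicates 1, 2 and 3 it measured 5.33, 4.10 and 4.77 CPM, again all inside the WT range. It was highest in WT replicate 2, unlike *T*. The log2 fold change of the gene whose 3′ UTR holds the *miR-483-3p* seed match printed above was 0.01 ± 0.20 (SE, adjusted p = 0.9998, edgeR), with a 95% interval of 0.733 to 1.38 in fold. Of 8 roof plate genes, none was called or had an unadjusted p under 0.05, and their sum was 110.5 to 123.9 CPM over the 6 libraries.

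**Figure D3:**
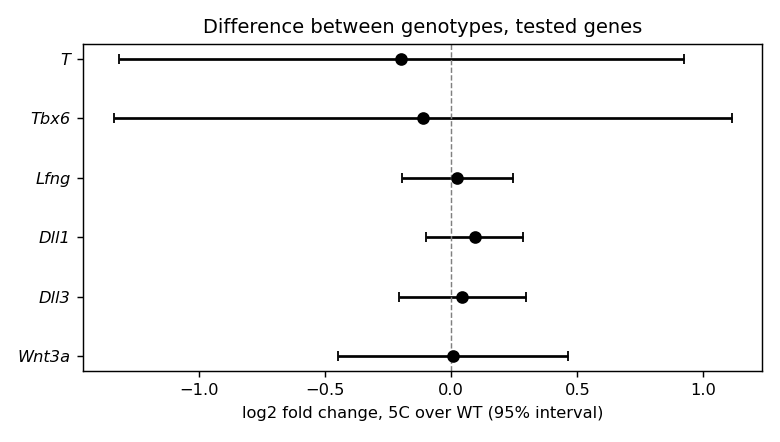
Log2 fold change of 5C over WT for the 6 genes tested, with bars for the 95% interval of edgeR's fit over 3 libraries a genotype. Every interval crosses 0, and those of *T* (-1.32 to 0.92) and *Tbx6* (-1.34 to 1.11) are the widest of the 6.

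Other genes of the same pathways were compared as lists. Of 20 tailbud progenitor genes, 15 were tested, with 0 called, 0 at an unadjusted p under 0.05 and a median log2 fold change of -0.026. The genotypes did not overlap in 1 of the 15, beside 11.4% of all genes tested. *Cdx2*, a caudal homeobox factor, measured 2.26, 0.945 and 1.12 CPM in the WT libraries and 0.545, 0.598 and 1.57 CPM in those of 5C, with a log2 fold change of -0.78 (adjusted p = 0.781, edgeR). *Fgf3*, an FGF ligand with the smallest p of the list, measured 0.997, 0.515 and 0.798 CPM in the WT libraries and 1.33, 0.768 and 1.495 CPM in those of 5C, with a log2 fold change of 0.61 (adjusted p = 0.781, edgeR). The most abundant members, *Wnt5a* and *Gdf11*, a Wnt ligand and a TGF-beta ligand of the extending axis, had log2 fold changes of 0.01 and -0.04. WT replicate 2 was alone the lowest library in 11 of the 20 genes, or 55%, beside 15.9% of all tested genes. The 11 include *Hoxa13*, *Hoxb13*, *Hoxc13* and *Hoxd13*, which are counted again with the Hox genes below. *Cdx4*, *Hoxb13* and *Hoxc13* had 0 or 1 count in that library and were not tested.

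In the Notch pathway, 29 of 29 genes were tested and 0 called, with a median log2 fold change of -0.033. At an unadjusted p under 0.05, 1 gene was higher and 2 were lower in 5C. Together they were 10.3% of the list, beside 6.02% of all genes (2.55% higher and 3.47% lower). *Nrarp*, a Notch target that feeds back on the pathway, measured 81.7, 80.1 and 74.5 CPM in the WT libraries and 96.5, 90.4 and 88.7 CPM in those of 5C (log2 fold change 0.22, adjusted p = 0.781, edgeR). The receptor gene *Notch2* measured 149, 127 and 157 CPM in the WT libraries and 118, 115 and 124 CPM in those of 5C (-0.28, adjusted p = 0.781, edgeR). In these genes, 2 of the 29, the genotypes did not overlap, beside 11.4% of all genes tested. The coactivator gene *Maml1* had a log2 fold change of -0.40 with overlapping libraries (adjusted p = 0.781, edgeR).

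Of 20 Wnt and FGF feedback genes all were tested and 0 called, with a median log2 fold change of -0.022 and 2 of 20 genes at an unadjusted p under 0.05, beside 6.02% of all genes. The genotypes did not overlap in 4 of the 20, beside 11.4% of all genes. *Dusp6*, a phosphatase induced by FGF signalling, measured 148, 128 and 148 CPM in the WT libraries and 168, 160 and 157 CPM in those of 5C (log2 fold change 0.20, adjusted p = 0.781, edgeR). *Tcf7l1*, a TCF family repressor of Wnt targets, measured 8.50, 6.44 and 9.57 CPM in the WT libraries and 5.39, 4.95 and 5.05 CPM in those of 5C (-0.66, adjusted p = 0.781, edgeR). Both are among the 4 without overlap, and neither passed the test.

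Downstream of the clock, 15 of 18 somite boundary, polarity and early somite genes were tested, with 0 called, 0 at an unadjusted p under 0.05 and a median log2 fold change of 0.031. *Epha4*, a receptor of segment borders, measured 204, 196 and 220 CPM in the WT libraries and 216, 203 and 199 CPM in those of 5C, which overlapped. The genotypes did not overlap in 2 of the 15, *Fst* and *Pax1*, beside 11.4% of all genes tested. Their log2 fold changes were 0.27 and -0.36 (adjusted p = 0.781 for both, edgeR). The sum of the 18 genes was 598.4 to 630.3 CPM in WT and 596.1 to 617.0 CPM in 5C. WT replicate 2 was alone the lowest in 5 of these 18 genes, or 27.8%, beside 15.9% of all tested genes.

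Hox genes, which are expressed progressively more towards the tail with rising paralogue number, were examined by library after the low tailbud values of WT replicate 2 had been seen. In that library the summed CPM was 0.700 of the mean of the other 5 libraries for paralogue group 1, 0.93 for group 2, 0.914 for group 3 and 0.819 for group 4. It was 0.628 to 0.705 for groups 5 to 9, 0.458 for group 10, 0.563 for group 11, 0.248 for group 12 and 0.618 for group 13, so the ratio did not fall evenly with paralogue number. That library was alone the lowest in 16 of 16 genes of groups 9 to 13 and in 19 of 23 genes of groups 1 to 8. Over all tested genes it was alone the lowest in 15.9%. Groups 9 to 13 include the Hox genes of the tailbud list above, so the counts are not separate. *Hoxb13*, *Hoxc12* and *Hoxc13* had 0 or 1 count in that library. The second lowest library in each of groups 4 to 13 was 5C replicate 1, which was also second lowest for *T*. The summed levels of the genotypes did not overlap in group 2 (47.5 to 49.5 CPM in WT and 54.8 to 58.2 CPM in 5C). Nor did they in group 3 (66.2 to 71.2 CPM and 72.8 to 75.1 CPM), while those of groups 1 and 4 to 13 overlapped. Of single tested genes, 11.4% did not overlap. Within groups 2 and 3, *Hoxa2*, *Hoxa3* and *Hoxd3* each overlapped, and the sums were not tested. *Ddx3y* was low in WT replicate 2 too but at its highest, 55.9 CPM, in 5C replicate 1, and its relation to these values was not tested.

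**Figure D4:**
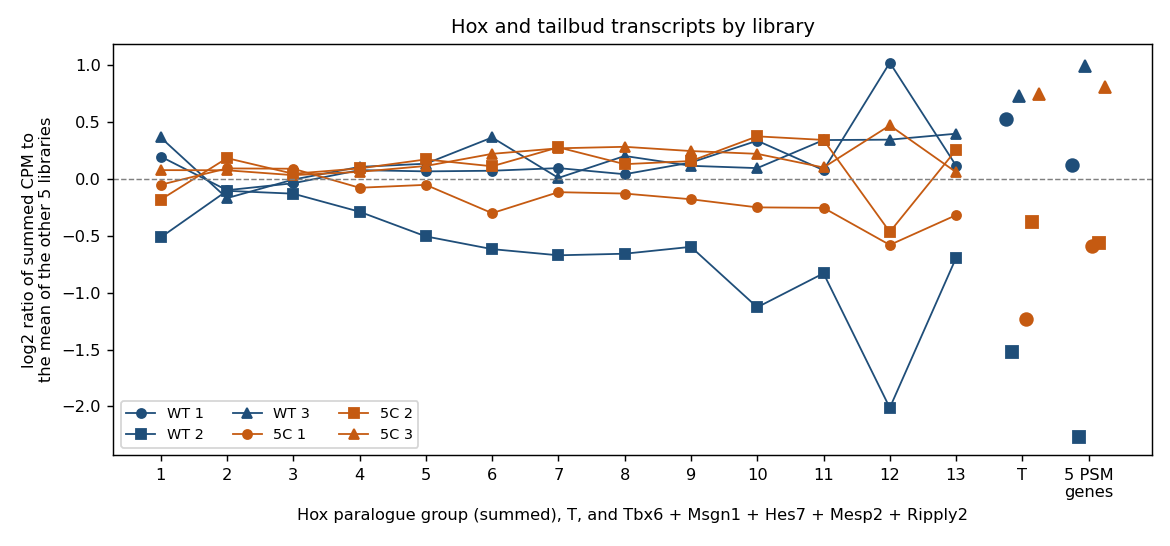
Log2 ratio of the summed CPM of each Hox paralogue group, of *T* and of the 5 presomitic mesoderm (PSM) genes in each library to the mean of the other 5 libraries. WT replicate 2 is the lowest library for *T*, for the PSM genes and in every paralogue group except group 2. The 3 WT libraries lie below the 3 5C libraries in groups 2 and 3, and the genotypes overlap in all the other groups.

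Markers of other tissues that the pools hold were measured beside the segmentation genes. Of 14 neural genes, 4 (*Sox2*, *Neurod1*, *Neurod4* and *Elavl4*) were higher in 5C at an unadjusted p under 0.05 and none was called. That is 28.6%, beside 2.55% of all genes, and the genotypes did not overlap in 6 of the 14, beside 11.4%. The neural list had a median of 0.20 in log2 fold change and a sum of 703.7 to 750.8 CPM in WT and 737.2 to 819.2 CPM in 5C. *Dll1*, *Dll3* and *Lfng* are also expressed in such cells, and the part of neural tissue in their values was not tested. Yolk sac endoderm genes had a median log2 fold change of -2.10 over 11 tested, with 0 called. Of these, 3 were lower at an unadjusted p under 0.05, beside 3.47% of all genes. The sum of the 12 genes was 6813 CPM in WT replicate 1 and 287 and 569 CPM in WT replicates 2 and 3. In 5C replicates 1, 2 and 3 it was 218, 200 and 1361 CPM, and the genotypes overlapped in all 11 tested genes. Of 5 heart genes (median -0.25) 0 were called and 2 were lower at an unadjusted p under 0.05, beside 3.47% of all genes. They were *Myh6* (-0.85, adjusted p = 0.781, edgeR) and *Myh7* (-0.47, adjusted p = 0.781, edgeR). Both were without overlap of the genotypes, beside 11.4% of all genes tested. Of 3 decidua genes tested (median 1.82) 0 were called and 1, *Gzmg*, was higher at that threshold, beside 2.55% of all genes. Blood genes (median 0.11, 5 tested) had none at either threshold.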

How the data were processed

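Whole-embryo RNA was sequenced as stranded poly(A)-selected libraries with single-end reads of 40 bases. The authors aligned reads with STAR 2.5.0a to GRCm38 with Ensembl 100 and deposited raw read counts per gene, without normalization. Symbols and positions came from GENCODE M21, which held 55141 of 55401 identifiers. Groups and replicate numbers came from the sample titles, and p-values measure the spread between these pools. Genes passed edgeR's filterByExpr, counts were scaled by TMM, and the genotypes were compared with the quasi-likelihood test (edgeR 4.0.16, limma 3.58.1, R 4.3.3) with Benjamini-Hochberg adjustment over all 16784 genes, tested first on simulated data. A prior count of 2 was used only for log2 CPM values, which gave the SD within genotype, the correlations between replicates and the GC-content offsets. Alternatives were other scalings, filters, tests (DESeq2 1.42.0, limma-voom), GC-content offsets, a replicate block and leaving out each library.

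The 10 genes and all lists were chosen with earlier results of these data known. All 10 were named. In each list, genes could be named if among the 3 smallest p-values or the 3 most abundant, or at an unadjusted p under 0.05. *Noto*, *Ddx3y*, *Cdx4*, *Hes1*, *Hes5*, *Hey1*, *Hey2*, *Heyl* and the Hox groups were chosen after their values were seen. At 3 counts, the limit for a count of 0, the level was 0.157 to 0.479 CPM by library. Intervals were exact at 95%.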

Additional observations from a re-analysis of the deposited data

How the results depend on the processing

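No gene of the 10 was called under any alternative, but all 10 were tested only with no count filter. In the other alternatives 5 to 7 of them were tested. Over all genes, 0 calls became 19 with DESeq2, 416 with no count filter, 3 with robust moderation and 0 to 1 when single libraries were left out, where the 1 came without 5C replicate 2 or without 5C replicate 3. With GC-content offsets and no replicate block, 1 of the 6 genes tested (*Dll1*) had an unadjusted p under 0.05. The median log2 fold change of the tested genes ranged from -0.024 to 0.092 over the left-out libraries. The sign turned for *T* (-0.76 to 0.13; positive without 5C replicate 1, WT replicate 1 or WT replicate 3), *Tbx6* (-0.60 to 0.33; positive without 5C replicate 2 or WT replicate 3), *Lfng* (-0.055 to 0.094; negative without replicate 1 of either genotype), *Dll3* (-0.024 to 0.13; negative without 5C replicate 1 or WT replicate 3) and *Wnt3a* (-0.12 to 0.20; negative without 5C replicate 1, WT replicate 1 or WT replicate 3). *Dll1* stayed positive, at 0.02 to 0.15. *Tbx6* was not tested where at least 10 counts were asked of every library.

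Deviations of same-numbered libraries of the genotypes had correlations of -0.174, 0.202 and -0.166 for replicates 1, 2 and 3. Differently numbered ones had -0.199 to 0.307. So few libraries cannot settle whether the numbers mark pairs, and they were not taken as pairs. With the replicate number as a block, 0 genes were called over all genes and 0 of the 6 tested here, and no call on these 6 changed. Depth limits *Msgn1*, *Hes7*, *Mesp2* and *Ripply2*, of which 13 values rested on 3 counts or fewer.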

Other observations

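Of the tested genes, those whose pattern over the 6 libraries was most like the mean profile of *Tbx6*, *Msgn1*, *Hes7*, *Mesp2* and *Ripply2* were *Ddx58*, *Gm53*, *Gm13830*, *Sycp2* and *Irgm2*. Likeness was the root mean square difference of centred log2 CPM over the 6 libraries, which was 0.0742, 0.0796, 0.105, 0.109 and 0.110 for these genes, beside a median of 0.449 over all tested genes. *T* stood at 0.369, *Dll1* at 0.426 and *Wnt3a* at 0.572. Before taking logs 0.25 was added to every CPM, which flattens the profile of genes with few counts. *T* ordered the libraries as the mean profile did, from WT replicate 2 lowest to 5C replicate 3 highest. *Ddx58* measured 9.34, 5.24 and 11.01 CPM in the WT libraries and 7.15, 8.28 and 11.1 CPM in those of 5C. The points share libraries and depth, the profile rests on few counts, and no p is given.

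The Notch target *Hey1* measured 37.0, 30.1 and 203 CPM in WT replicates 1, 2 and 3 and 41.8, 41.0 and 35.0 CPM in 5C replicates 1, 2 and 3. WT replicate 3 thus stood far above the other 5 libraries in *Hey1*, while *Dll1* and *Lfng* in that library lay within the range of the others and *Dll3*, at 18.98 CPM, was just below them. The Notch targets *Hes1* (38.6 CPM), *Hes5* (52.0) and *Nrarp* (74.5) were at their lowest there. *Hey2* and *Heyl* lay within the range of the others. Genes more than 2-fold above every other library numbered 164 in WT replicate 1, 48 in WT replicate 3, 20 in 5C replicate 3, 5 in WT replicate 2, 1 in 5C replicate 1 and 0 in 5C replicate 2. Genes more than 2-fold below every other library numbered 95 in WT replicate 3, 47 each in WT replicate 2 and 5C replicate 2, 38 in 5C replicate 3, 19 in WT replicate 1 and 14 in 5C replicate 1.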
